A study of Mus musculus with 24 samples.

Results

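Transcript counts of 9 inflammatory cytokine and chemokine genes were examined in mouse adipose tissue, out of 54232 genes in the count table. The genes are Il6, Tnf, Il1b, Il18, Ccl2, Ccl7, Cxcl1, Cxcl12 and Csf1, and their rows were found by symbol through the GENCODE annotation of the mouse genome GRCm38. All 9 were present in the table, once each. They were chosen by name and not by their values.

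RNA was sequenced from adipose tissue of 24 C57BL6 mice, male according to the methods of the study and 10 weeks old by the series description, with 6 mice per group and 1 library per mouse. All animals received 100 µL of lentivirus intraperitoneally, whose cargo was NaKtide together with a fluorescent protein, or the fluorescent protein alone (eGFP), under the promoter of the adipocyte gene adiponectin. NaKtide is a peptide taken from the α1 subunit of the Na,K-ATPase that blocks signalling through the kinase Src. The groups were Control (sham operation, eGFP), NaKtide (sham operation, NaKtide), PNx (5/6 nephrectomy, in which the right kidney and part of the left one are put out of function, with eGFP) and PNx+NaKtide (5/6 nephrectomy, NaKtide).

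Inflamed fat is classically marked by these genes. Tissue macrophages and stressed adipocytes release the cytokines TNF, IL-6 and IL-1β, and the last of these, like IL-18, is made as an inactive precursor that caspase-1 cleaves in the inflammasome. The chemokines CCL2 and CCL7 draw monocytes through the receptor CCR2, CXCL1 draws neutrophils through CXCR2, CXCL12 binds CXCR4 and ACKR3, and CSF1 keeps macrophages alive through CSF1R. Transcription of several of these genes is switched on by NF-κB, which binds short sites known as κB sites in their promoters.

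The promoters of 4 of the genes are shown as examples, since Il6 and Csf1 hold κB-like letters, Il1b holds TATA letters and Cxcl12 holds neither. Each sequence holds the 250 bases before the transcription start, 5′ to 3′ on the strand of the gene, from RefSeq on GRCm38.p6, at chr5:30012864-30013113 (plus strand) for Il6, chr2:129371140-129371389 (minus) for Il1b, chr6:117168285-117168534 (plus) for Cxcl12 and chr3:107760470-107760719 (minus) for Csf1. Capitals mark a κB-like match (GGGA and TTCC with any 2 bases between them, searched on both strands) or a TATA match (TATAAA, both strands).
Il6: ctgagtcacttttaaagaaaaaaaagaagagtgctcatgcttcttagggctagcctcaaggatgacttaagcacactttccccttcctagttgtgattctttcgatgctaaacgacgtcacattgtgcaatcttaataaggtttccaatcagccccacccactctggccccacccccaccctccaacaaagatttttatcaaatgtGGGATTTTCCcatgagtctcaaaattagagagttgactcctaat
Il1b: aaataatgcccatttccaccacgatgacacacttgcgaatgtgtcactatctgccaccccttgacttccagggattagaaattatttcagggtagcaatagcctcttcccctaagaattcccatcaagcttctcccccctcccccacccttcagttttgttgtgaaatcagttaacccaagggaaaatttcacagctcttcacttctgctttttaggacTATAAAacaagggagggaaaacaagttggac
Cxcl12: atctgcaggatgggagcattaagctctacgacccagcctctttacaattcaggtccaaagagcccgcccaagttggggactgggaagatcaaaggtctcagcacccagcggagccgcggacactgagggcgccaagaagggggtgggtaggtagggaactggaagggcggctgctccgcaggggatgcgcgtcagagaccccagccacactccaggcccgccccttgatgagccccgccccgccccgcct
Csf1: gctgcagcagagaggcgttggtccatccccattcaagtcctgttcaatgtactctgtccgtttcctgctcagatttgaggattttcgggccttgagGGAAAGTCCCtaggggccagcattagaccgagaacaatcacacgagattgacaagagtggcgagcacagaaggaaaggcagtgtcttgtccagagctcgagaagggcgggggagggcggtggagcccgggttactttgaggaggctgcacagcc

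The κB-like letters were found in Il6 at 44 to 35 bases before the start, and in Csf1 on the opposite strand at 154 to 145 bases before it. Among the members not printed, Cxcl1 held GGGAATTTCC at 71 to 62 bases before its start and an overlapping match on the opposite strand. Of 32851 promoters of this length, 1.21% held the κB-like letters. TATAAA stood in Il1b at 31 to 26 bases in Tnf at 29 to 24 bases and, on the opposite strand, in Il18 at 175 to 170 bases before the start, and 12.4% of the promoters held it. The GC box, GGGCGG on either strand, had 5 matches in Cxcl12, 2 in Csf1 and 1 in Tnf, and was found in 32.7% of promoters. Windows were found for 7 of the 9 members, all but Ccl2 and Ccl7. A match of letters is a description of the sequence and does not show that a factor was bound.

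The 24 libraries held 679250 to 2979505 counts each and 41811369 together. Levels are given as CPM, the count of a gene per 1000000 counts of its library. A count of 0 in 1 library allows up to 3 counts, which is 1.01 CPM in the deepest library and 4.42 CPM in the shallowest, and this limit, like the Poisson intervals given below, covers counting error only. The libraries were prepared with a kit that keeps the strand, but the strand that was counted is not given in the sources used here. Genes whose exons overlap those of an opposite-strand gene made up 16.8% of all genes and held 79.9% of all counts (70.2% to 86.5% in single libraries). The median protein-coding gene with such an overlap had 583 counts over the 24 libraries, and the median one without had 75. On the mitochondrial genome, mt-Nd6, the 1 mRNA of the minus strand (singled out after its values were seen), had 67.6 times as many counts per kb as the 12 mRNAs of the plus strand. For the cytokine genes this means that a count is the number of reads assigned to the gene by the authors and that a count of 0 limits those assigned reads. Of the 9 members 8 have no such overlap, and Il1b shares 25 exon bases with Il1bos.

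The libraries were also checked against marker genes. Summed over 12 adipocyte genes (such as Adipoq and Plin1), levels ran from 98.7 to 1476 CPM in 22 libraries and reached 10698 CPM in 1 PNx library (replicate 6) and 5452 CPM in 1 NaKtide library (replicate 6). Summed over 15 epididymis genes, the level was above the adipocyte sum in 21 of 24 libraries. It was lowest in PNx replicate 1 (31.2 CPM), NaKtide replicate 6 (33.2 CPM), PNx replicate 6 (203 CPM) and PNx replicate 2 (320 CPM). PNx replicates 1, 2 and 3 had the 3 highest sums of 12 testis germ cell genes, 1501, 1211 and 1774 CPM, against at most 1005 CPM elsewhere. In bulk tissue, fewer cells of a type and less RNA per cell cannot be told apart.

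Among the cytokines, Il6 (chromosome 5, 30013114 to 30019981, plus strand) and Tnf (chromosome 17, 35199381 to 35202007, minus strand) had 0 counts in every one of the 24 libraries. Over all libraries a count of 0 allows up to 0.0718 CPM. Within a group it allows up to 0.267 CPM in Control, 0.360 CPM in NaKtide, 0.228 CPM in PNx and 0.331 CPM in PNx+NaKtide. Neither gene was therefore detected among the assigned reads in any group, and no comparison of groups could be made for them. Since the counted strand is not given, these limits apply to assigned reads, and what the 0 counts say of the transcripts was not tested. Of 21983 protein-coding genes, 10.2% had 0 counts throughout. Among the 16702 protein-coding genes without an opposite-strand overlap the share was 12.9%.

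Il18 (chromosome 9, 50554827 to 50581840, plus strand), the partner of Il1b in the inflammasome pathway, had 8 counts in all, spread over 7 libraries. Control, NaKtide and PNx+NaKtide had 1 count each, that of NaKtide in replicate 6. PNx had 5, of which replicate 6 held 2 and replicates 1, 2 and 3 held 1 each, for a 95% Poisson interval of 0.123 to 0.886 CPM over its 6 libraries. In PNx+NaKtide the interval was 0.00279 to 0.615 CPM, so the intervals overlapped, and Il18 stayed below the minimum of more than 10 counts that a gene needed to be tested.

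Il1b (chromosome 2, 129364570 to 129371139, minus strand) was the member with the highest level per length. It had 196 counts, and 22 of 24 libraries held at least 1. In Control its level ran from 0.650 to 8.03 CPM with a median of 2.98 CPM (3.54 ± 2.64 CPM, mean ± SD, n = 6). In NaKtide it ran from 0 to 1.60 CPM with a median of 1.34 CPM (0.960 ± 0.753 CPM, SD, n = 6). The 6 NaKtide libraries were all below the median of Control, although the groups overlapped.

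In PNx the Il1b level ran from 1.05 to 15.6 CPM with a median of 5.97 CPM (7.53 ± 7.05 CPM, SD, n = 6). In PNx+NaKtide it ran from 0.662 to 5.24 CPM with a median of 3.03 CPM (3.14 ± 1.84 CPM, SD, n = 6). The PNx group fell into high and low libraries with nothing between them. PNx replicates 1, 2 and 3 had 46, 36 and 27 counts, or 15.4, 15.6 and 10.1 CPM, the 3 highest levels of all libraries. They were also among the deepest libraries, with 2979505, 2309056 and 2678556 counts. The next highest level, 8.03 CPM, was in Control replicate 2, another of the deepest (2366069 counts). PNx replicates 4, 5 and 6 had 3, 2 and 2 counts, or 1.85, 1.20 and 1.05 CPM, within the range of the PNx+NaKtide group. PNx replicates 1, 2 and 3 hold 19.1% of all counts in the table and 109 of the 196 Il1b counts, or 55.6%.

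These are the libraries with the highest testis germ cell sums, in which 12, 11 and 12 of the 12 genes of that list were above their median over all libraries. The macrophage list (12 genes) stood at 44.6, 42.0 and 47.8 CPM there, within its range of 25.7 to 66.5 CPM in the libraries other than PNx replicate 6 and NaKtide replicate 6. Neutrophils are a known source of IL-1β, and the sums of their list in PNx replicates 1, 2 and 3 were 1.34, 1.73 and 2.99 CPM. Over all libraries it ran from 0 to 16.3 CPM, with the highest sum in Control replicate 1. Of its 8 genes S100a8 and Retnlg had 0 counts in all 24 libraries, and Ltf (82 counts) and Camp (60 counts) had the most. A high testis germ cell sum also occurred without the highest Il1b levels. In PNx replicate 6, 11 of those 12 genes were above their median and the sum reached 979 CPM. Its Il1b level was 1.05 CPM. For PNx+NaKtide replicate 4 the sum was 1005 CPM and the Il1b level 3.90 CPM. The part of any of these cells in the Il1b level was not tested. The antisense partner Il1bos had 9 counts in all, of which 5 lay in PNx replicates 1, 2 and 3, and its highest single count was 2.

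**Figure D1:**
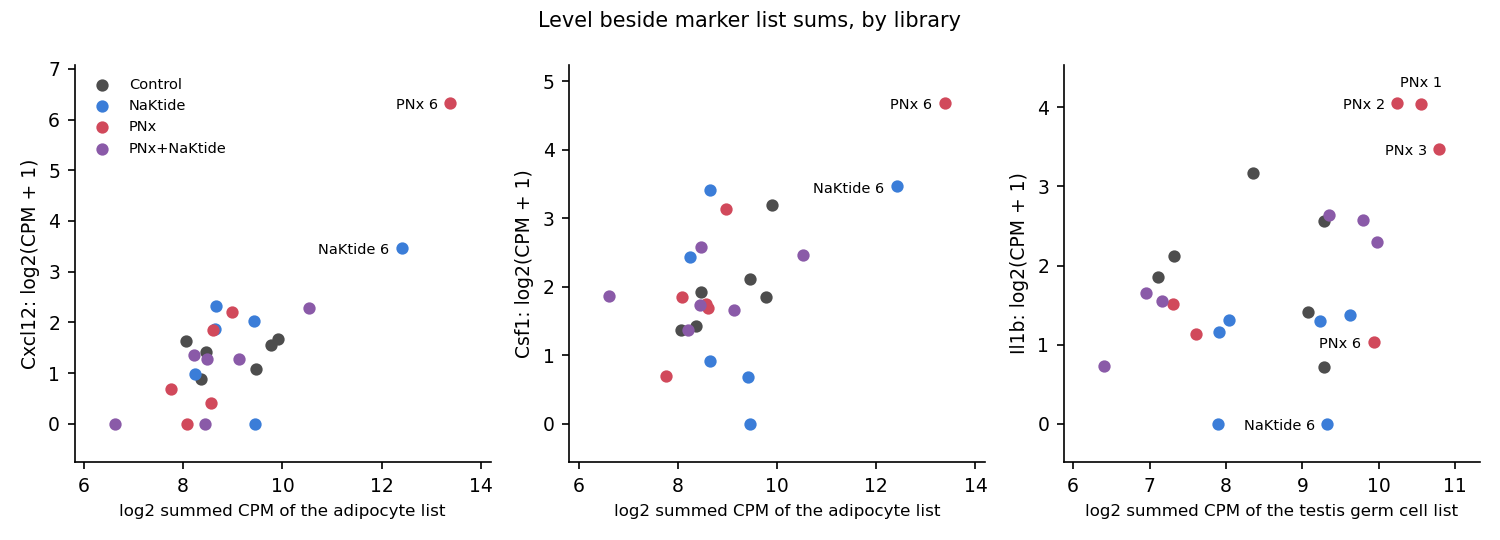
Level of Cxcl12 and Csf1, as log2(CPM + 1), against the log2 of the summed CPM of 12 adipocyte genes, and level of Il1b against that of 12 testis germ cell genes, with 1 point per library coloured by group. PNx replicate 6 and NaKtide replicate 6 stand apart to the right in the adipocyte panels, and PNx replicates 1, 2 and 3 stand at the upper right of the Il1b panel.

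The monocyte chemokines were close to absent from the counts. Ccl2 (chromosome 11, 82035571 to 82037453, plus strand) had 18 counts in 5 libraries. NaKtide replicate 6 held 8 of them (5.02 CPM) and PNx replicate 6 held 6 (3.14 CPM). NaKtide replicate 2 held 2 (1.23 CPM), and Control replicates 3 and 4 held 1 each. The other 19 libraries, all 6 of PNx+NaKtide among them, had 0. Ccl7 (chromosome 11, 82045712 to 82047525, plus strand), its neighbour in the same chemokine cluster, had 7 counts in 5 libraries and was not tested. PNx replicate 6 held 3 of the 7 and NaKtide replicate 6 held 1. Over the PNx libraries Ccl7 stood at 0.304 CPM (95% Poisson interval 0.0828 to 0.778). Over Control, with 0 counts, the same interval ran from 0 to 0.328 CPM, so the intervals overlapped.

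Cxcl1 (chromosome 5, 90891241 to 90893115, plus strand), the neutrophil chemokine, had similar medians in the groups. It had 87 counts in 19 libraries. Its level ran from 0.556 to 4.45 CPM in Control (median 1.66 CPM), from 0 to 4.90 CPM in NaKtide (median 1.62 CPM), from 0 to 4.32 CPM in PNx (median 1.27 CPM) and from 0 to 8.61 CPM in PNx+NaKtide (median 2.22 CPM). The group means were 1.93 ± 1.45, 2.02 ± 2.04, 1.74 ± 1.91 and 3.08 ± 2.94 CPM (SD, n = 6 each), and all groups overlapped. In contrast to Ccl2, it had 0 counts in both PNx replicate 6 and NaKtide replicate 6, where a count of 0 allows up to 1.57 and 1.88 CPM.

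Cxcl12 (chromosome 6, 117168535 to 117181367, plus strand) had 228 counts, the most of any member, and 151 of them came from PNx replicate 6. Its level ran from 0.845 to 2.18 CPM in Control, with a median of 1.81 CPM (1.64 ± 0.548 CPM, SD, n = 6). In NaKtide it ran from 0 to 10.0 CPM with a median of 2.86 CPM (3.46 ± 3.53 CPM, SD, n = 6), and the highest value was replicate 6. In PNx it ran from 0 to 79.1 CPM with a median of 1.62 CPM (14.4 ± 31.8 CPM, SD, n = 6). In PNx+NaKtide it ran from 0 to 3.85 CPM with a median of 1.43 CPM (1.38 ± 1.41 CPM, SD, n = 6). The mean of PNx was set by replicate 6, and the other 5 PNx libraries, from 0 to 3.59 CPM, overlapped Control.

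Csf1 (chromosome 3, 107741048 to 107760469, minus strand), the macrophage growth factor, had 183 counts and was seen in 23 libraries, more than any other member. In Control its level ran from 1.57 to 8.17 CPM with a median of 2.69 CPM (3.36 ± 2.45 CPM, SD, n = 6). In NaKtide it ran from 0 to 10.0 CPM with a median of 2.63 CPM (4.25 ± 4.58 CPM, SD, n = 6). In PNx it ran from 0.617 to 24.6 CPM with a median of 2.47 CPM (6.70 ± 9.11 CPM, SD, n = 6). In PNx+NaKtide it ran from 1.57 to 4.95 CPM with a median of 2.49 CPM (3.03 ± 1.37 CPM, SD, n = 6). The 4 medians lay between 2.47 and 2.69 CPM, and PNx replicate 6 set the highest value of all.

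**Figure D2:**
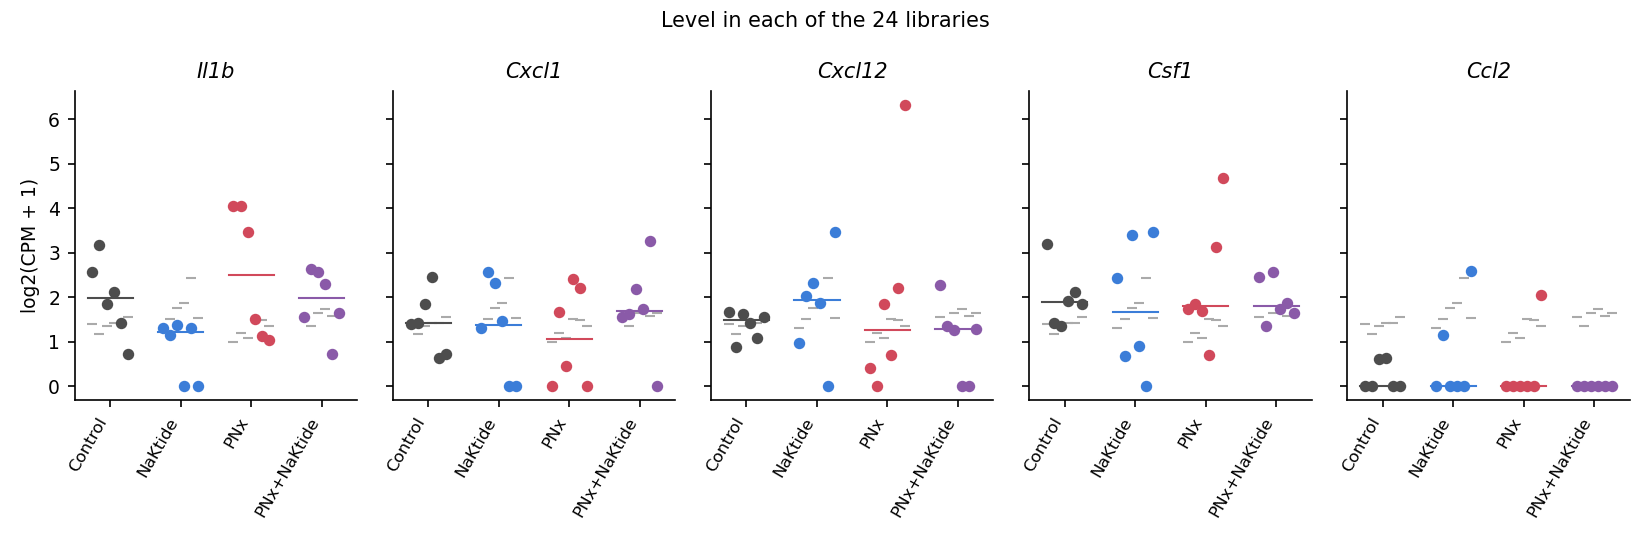
Level of the 5 tested genes in each of the 24 libraries, as log2(CPM + 1), with 1 point per mouse in replicate order, a coloured line at the group median and a grey dash at the limit of 3 counts in that library. The points of all 4 groups overlap for each gene, and PNx replicate 6 reaches 79.1 CPM for Cxcl12 and 24.6 CPM for Csf1.

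PNx replicate 6 and NaKtide replicate 6 together hold 8.38% of all counts in the table. They hold 73.2% of the Cxcl12 counts, 77.8% of the Ccl2 counts, 57.1% of the Ccl7 counts, 37.5% of the Il18 counts and 34.4% of the Csf1 counts. By contrast they hold 1.02% of the Il1b counts and 0 of the 87 Cxcl1 counts. In these libraries all 12 adipocyte genes were above their median over all libraries. The macrophage list had 12 of 12 genes above their median in PNx replicate 6 (sum 267 CPM) and 9 of 12 in NaKtide replicate 6 (132 CPM), against sums of 25.7 to 66.5 CPM elsewhere. The endothelium list stood at 847 and 490 CPM, against 43.5 to 99.3 CPM elsewhere, and the fibroblast progenitor list at 678 and 265 CPM, against 10.6 to 111 CPM. Blood genes were also high in both libraries. Their erythrocyte sums were 2260 and 238 CPM, against 9.93 to 141 CPM elsewhere. The skeletal muscle list was high in NaKtide replicate 6 only, with a sum of 4871 CPM. For PNx replicate 6 that sum was 15.7 CPM, within the 7.05 to 53.8 CPM seen elsewhere. Not every list was high in these libraries. Their T cell sums, 12.6 and 10.0 CPM, were the lowest of the 24 libraries. In PNx replicate 6, 7 of the 8 T cell genes were nevertheless above their median. Their neutrophil sums, 3.14 and 1.88 CPM, lay within the 0 to 16.3 CPM seen elsewhere. The mesothelium sum was the lowest of all in NaKtide replicate 6 (15.1 CPM). The part of these cells in the levels of Cxcl12, Ccl2, Ccl7, Il18 and Csf1 was not tested.

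To compare the genes with each other, levels were divided by the annotated exon length, which joins the exons of all annotated transcripts of a gene. For Cxcl1 this is 1 block of 1875 bases that spans the whole gene. A single transcript can be shorter than this length, so the order and the limits per kb depend on it. Other lengths were not tried. Over all 24 libraries pooled, the order was Il1b at 2.46 CPM per kb (95% Poisson interval 2.13 to 2.83), Cxcl1 at 1.11 (0.889 to 1.37), Csf1 at 0.829 (0.713 to 0.958), Cxcl12 at 0.667 (0.583 to 0.759), Ccl2 at 0.378 (0.224 to 0.598), Ccl7 at 0.209 (0.0840 to 0.431) and Il18 at 0.186 (0.0801 to 0.366) CPM per kb. Il6 and Tnf, at 0 counts, were at most 0.0296 and 0.0438 CPM per kb by the limit of 3 counts. Their 95% Poisson intervals reached up to 0.0363 and 0.0538 CPM per kb. The level of Il1b per kb was above that of 72.1% of protein-coding genes, and that of Il18 above 29.4%.

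Several neighbours in this order did not differ beyond the spread between libraries. Il1b was above Cxcl1 in 12 of 24 libraries and below it in 11. Cxcl1 was above Csf1 in 14 and below it in 9. Csf1 was above Cxcl12 in 20 of 24 and below it in 3, the clearest step among the neighbours. Ccl7 and Il18 were each above the other in 5 libraries and equal, at 0, in 14. Of the pooled counts, 55.6% of those of Il1b came from PNx replicates 1, 2 and 3, and 66.2% of those of Cxcl12 came from PNx replicate 6.

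The detection limit differed between the genes because of their lengths. In the library of median depth, 3 counts correspond to 0.222 CPM per kb for Cxcl12 (8176 exon bases), the gene with the lowest limit, and to 2.27 CPM per kb for Ccl7 (801 exon bases), the gene with the highest. The limits of the others were 0.344 for Csf1, 0.749 for Il6, 0.953 for Il1b, 0.969 for Cxcl1, 1.11 for Tnf, 1.60 for Ccl2 and 1.76 CPM per kb for Il18. From the deepest to the shallowest library, the limit ran from 0.415 to 1.82 CPM per kb for Il6, from 0.614 to 2.69 for Tnf, from 0.123 to 0.540 for Cxcl12 and from 1.26 to 5.51 CPM per kb for Ccl7. The pooled levels of Ccl2, Ccl7 and Il18 lay below the limit of even the deepest library. More than 3 counts were found in 16 libraries for Csf1, 11 for Cxcl1, 10 for Il1b, 9 for Cxcl12 and 2 for Ccl2, and in 0 libraries for Ccl7 and Il18. For scale, 50.2% of protein-coding genes had a pooled level above the limit of Il6 in the library of median depth, and 42.9% had one above that of Tnf.

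**Figure D3:**
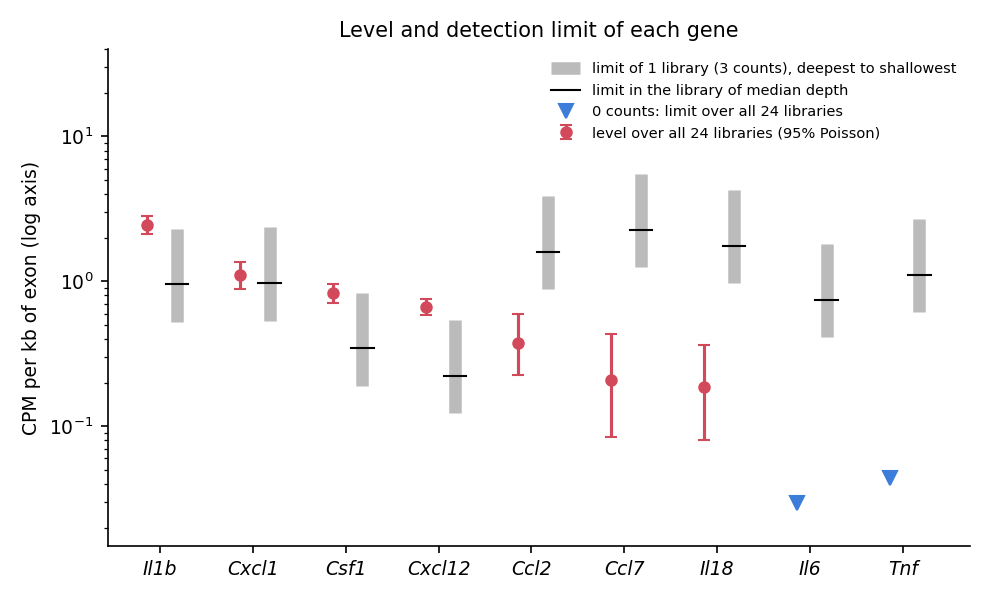
Level of each gene over all 24 libraries (red points with 95% Poisson intervals, or blue triangles at the limit where the count was 0) beside the limit of a single library (grey bars from the deepest to the shallowest library, black line at median depth), in CPM per kb of exon on a log axis. The level of Il1b lies above its limit at median depth, and those of Ccl2, Ccl7 and Il18 lie below their grey bars.

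The comparison of PNx with Control asks what nephrectomy did in the mice that carried eGFP alone. The 5 members with more than 10 counts (Il1b, Ccl2, Cxcl1, Cxcl12 and Csf1) were tested together with all 26116 such genes by edgeR's quasi-likelihood F-test, at a Benjamini-Hochberg adjusted p under 0.1. None of the 5 passed, against 0.0766% of all genes tested. At an unadjusted p under 0.05 there was 1 of 5, Cxcl12, against 25.4% of all genes (18.5% higher and 6.88% lower in PNx). DESeq2 called 0 of the 5, against 29.7% of all genes, but it gave Cxcl12 no p and Ccl2 no adjusted p. These genes could therefore not be called by it. Limma voom with sample weights called 3, against 63.5% of all genes. Without PNx replicate 4 or 5 edgeR called 1, Cxcl12, against 33.2% and 23.2% of all genes.

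Cxcl12 had a log2 fold change of 2.60 ± 1.03 (SE, adjusted p = 0.149 in edgeR). Without PNx replicate 6 it was -0.47, and DESeq2 gave the gene no p. Only 3 of 6 PNx libraries, replicates 3, 5 and 6, were above the mean of Control. Il1b had a log2 fold change of 0.71 ± 0.66 (SE, adjusted p = 0.481 in edgeR). Without PNx replicates 1, 2 and 3 it was -1.52. The 2 genes thus rested on different libraries of the same group.

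Csf1 had a log2 fold change of 0.65 ± 0.69 (SE, adjusted p = 0.535 in edgeR), and -0.28 without PNx replicate 6. Ccl2 had one of 0.83 ± 1.30 (SE, adjusted p = 0.694 in edgeR), and its only PNx counts were those of replicate 6. Cxcl1 had one of -0.30 ± 0.92 (SE, adjusted p = 0.848 in edgeR). Over all genes tested the median was 0.36 in this comparison, and the values of the members are to be read against it. The 3 members among the 63.5% of genes that voom called were Il1b (1.19, adjusted p = 0.0476), Cxcl1 (-1.65, adjusted p = 0.0763) and Ccl2 (-1.26, adjusted p = 0.0558, opposite in sign to edgeR).

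**Figure D4:**
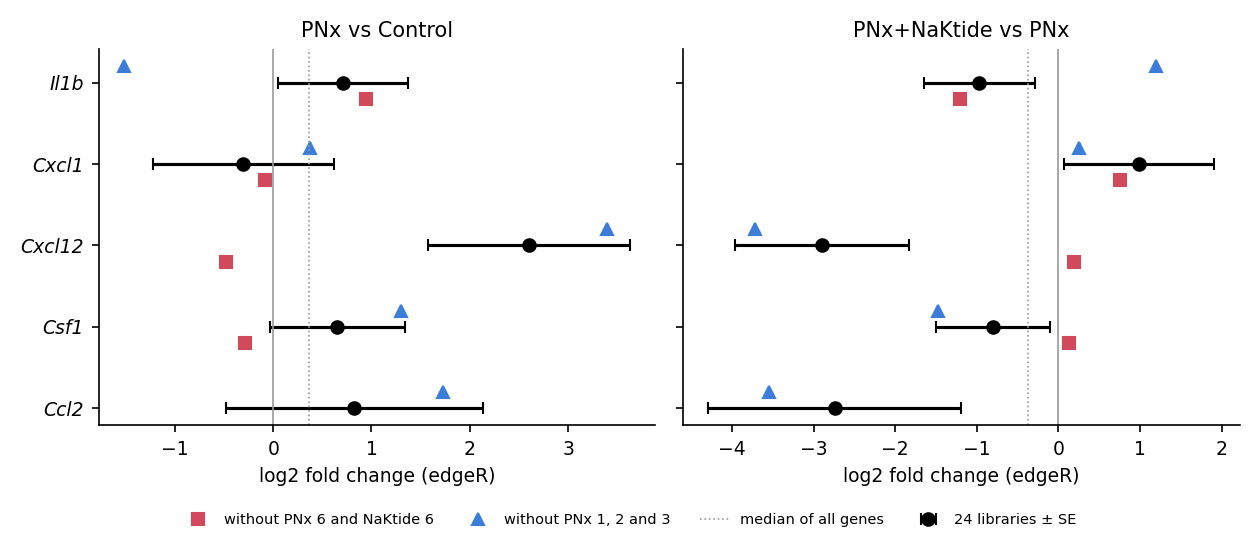
Log2 fold changes of the 5 tested genes in edgeR (black points, bars are SE) with all 24 libraries, without PNx replicate 6 and NaKtide replicate 6 (red squares) and without PNx replicates 1, 2 and 3 (blue triangles), and the median of all genes (dotted line). Cxcl12 and Csf1 cross 0 without the first pair of libraries, and Il1b crosses 0 without the other 3. For Ccl2 no red square is drawn, since too few counts remained for the gene to be tested.

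The comparison of PNx+NaKtide with PNx addresses the effect of NaKtide after nephrectomy. It uses the same PNx libraries as the comparison above, so a library that is high in PNx gives differences of opposite sign in the pair of comparisons. None of the 5 members passed in edgeR, against 0% of all genes tested. At an unadjusted p under 0.05 there was 1 of 5, Cxcl12, against 12.7% of all genes (4.07% higher and 8.60% lower). DESeq2 called 0, against 5.80% of all genes, and again gave Cxcl12 no p and Ccl2 no adjusted p. Voom called 1, Cxcl1 (1.96, adjusted p = 0.0667), against 42.4%.

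The log2 fold change of Cxcl12 was -2.90 ± 1.06 (SE, adjusted p = 0.357 in edgeR) and 0.18 without PNx replicate 6. That of Il1b was -0.97 ± 0.68 (SE, adjusted p = 0.481 in edgeR), and 1.19 without PNx replicates 1, 2 and 3. That of Csf1 was -0.80 ± 0.70 (SE, adjusted p = 0.548 in edgeR), and 0.13 without PNx replicate 6. That of Cxcl1 was 0.99 ± 0.92 (SE, adjusted p = 0.571 in edgeR). Ccl2 had 0 counts in all PNx+NaKtide libraries, with a 95% Poisson interval of 0 to 0.407 CPM over the group. In PNx it had 6 counts or 0.456 CPM (95% Poisson interval 0.167 to 0.992), so the intervals overlapped. Its fitted fold change depends on the prior count and gives no size. The edgeR adjusted p was 0.430.

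Between the sham-operated groups, NaKtide against Control gave 0 of 5 calls in edgeR (0% of all genes), in DESeq2 (0.0115%) and in voom (0.00766%). Cxcl12 had no p in DESeq2. At an unadjusted p under 0.05 there was 1 of 5 members in edgeR, Il1b, against 3.95% of all genes (2.04% higher and 1.91% lower). Il1b had a log2 fold change of -1.89 ± 0.80 (SE, adjusted p = 1 in edgeR), and it lay between -2.10 and -1.38 with any single library left out. Without Control replicate 2, or without NaKtide replicate 6, 0 of the 5 members were at an unadjusted p under 0.05. This comparison includes none of the PNx libraries. Cxcl12 stood at 1.13 ± 1.06 and Csf1 at 0.38 ± 0.71 (SE), and Csf1 at -0.090 without NaKtide replicate 6.

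Between the groups that carried NaKtide, PNx+NaKtide against NaKtide also gave 0 of 5 calls in edgeR (0% of all genes), in DESeq2 (0.00766%) and in voom (0%). Cxcl12 had no p in DESeq2. At an unadjusted p under 0.05 there was 1 of 5, Ccl2 (adjusted p = 1 in edgeR), against 4.09% of all genes (1.50% higher and 2.58% lower). The gene had 10 counts in NaKtide, 8 of them in replicate 6, and 0 in PNx+NaKtide. Il1b had a log2 fold change of 1.63 ± 0.81 (SE, adjusted p = 1 in edgeR). The group means were 0.960 CPM in NaKtide and 3.14 CPM in PNx+NaKtide, and 5 of 6 PNx+NaKtide libraries were above the highest NaKtide library.

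The interaction tests whether nephrectomy had a different effect in the 2 transductions. None of the 5 members passed in edgeR (0% of all genes), in DESeq2 (0.360%) or in voom (25.2%). DESeq2 gave Cxcl12 no p and Ccl2 no adjusted p, so it could not call them. In edgeR 2 of 5 members were at an unadjusted p under 0.05, against 9.27% of all genes (3.48% higher and 5.79% lower). These were Cxcl12 (-4.03 ± 1.50, SE, adjusted p = 0.492 in edgeR) and Ccl2 (adjusted p = 0.497). For Cxcl12 the value lay between -4.54 and -0.95 with any single library left out. With PNx replicate 6 and NaKtide replicate 6 left out together it was -0.27. Both genes have most of their counts in PNx replicate 6 and NaKtide replicate 6. For Il1b the interaction was 0.92 ± 1.02 (SE, adjusted p = 0.757 in edgeR).

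Genes whose levels followed the members over the 24 libraries were sought among named genes with a mean of at least 5 CPM, by Pearson correlation of log2 CPM, as a description. For Il1b these were Cideb (r = 0.88) and Xpa (r = 0.87). Both have an opposite-strand exon overlap, and in PNx replicates 1, 2 and 3 Cideb stood at 29.9 to 33.3 CPM against a median of 9.64 CPM. Without these 3 libraries r was 0.81 and 0.77. For Cxcl12 these were Phyh (r = 0.89) and the endothelial marker Pecam1 (r = 0.89), which stood at 156 CPM in PNx replicate 6 against a median of 3.15 CPM. Without PNx replicate 6 and NaKtide replicate 6, r was 0.78 and 0.66. For Csf1 these were Ccnl1 (r = 0.85) and Nedd4 (r = 0.85), and 0.80 and 0.74 without those libraries. The libraries share depth and tissue makeup across genes, and no p was computed.

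The other genes of these pathways were examined as 6 lists with 81 genes, of which 6 had 0 counts and 62 were tested. In PNx against Control, 0 of 62 were called in edgeR, 16 in DESeq2 (25.8%, against 29.7% of all genes) and 44 in voom (71.0%, against 63.5%). The edgeR count was 14 without PNx replicate 4 or 5 (33.2% and 23.2% of all genes called), 7 without PNx replicate 6 (14.8%) and 1 without Control replicate 5 (0.496%). At an unadjusted p under 0.05, 9 were higher in PNx (14.5%, against 18.5% of all genes) and 4 were lower (6.45%, against 6.88%). The median log2 fold change was 0.30, against 0.36 for all genes. In PNx+NaKtide against PNx, 0 were called in edgeR, 8 in DESeq2 (12.9%, against 5.80% of all genes) and 34 in voom (54.8%, against 42.4%). There were 7 higher (11.3%, against 4.07%) and 6 lower (9.68%, against 8.60%) at an unadjusted p under 0.05. The median was -0.18, against -0.37.

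Of the receptors, 9 of 15 were tested, and at an unadjusted p under 0.05 there was 1 higher and 1 lower in each comparison. Each is 11.1% of those tested. In PNx against Control 18.5% of all genes were higher and 6.88% lower, and in PNx+NaKtide against PNx 4.07% and 8.60%. Csf1r, the receptor of Csf1, had the highest level, 365 ± 26.2 CPM in Control and 300 ± 96.9 CPM in PNx (SD, n = 6), and it shares 873 exon bases with Hmgxb3 on the opposite strand. The signalling chain of the IL-6 receptor, Il6st, and the TNF receptor Tnfrsf1a had log2 fold changes of 1.10 ± 0.74 and 0.56 ± 0.66 (SE). Of the chemokine receptors, Cxcr2, Ccr1 and Ccr3 had 0 counts, Ccr2, the receptor of CCL2 and CCL7, had 14, and Cxcr4 and Ackr3, the receptors of CXCL12, had 2 and 28.

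Of the inhibitors and decoys, 7 of 10 were tested and 2 were higher in PNx than in Control at an unadjusted p under 0.05. That is 28.6%, against 18.5% of all genes. The IL-18 binding protein Il18bp, which captures IL-18, had 118 ± 23.4 CPM in Control and 92.1 ± 63.2 CPM in PNx (SD, n = 6) and shares 80 exon bases with Numa1. Nfkbia, the inhibitor of NF-κB, had a log2 fold change of 0.41 ± 0.74 (SE, adjusted p = 0.734 in edgeR). Socs3, which damps signalling from the IL-6 receptor, had one of 2.44 ± 1.06 (SE, adjusted p = 0.166 in edgeR), from 1.63 ± 1.33 CPM in Control to 11.9 ± 12 CPM in PNx (SD, n = 6).

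Of the genes for processing and release, 9 of 11 were tested, with 1 higher and 1 lower in PNx at an unadjusted p under 0.05. Each is 11.1%, against 18.5% of all genes higher and 6.88% lower. Adam17, the protease that releases TNF, had 352 ± 40.9 CPM in Control and 227 ± 189 CPM in PNx (SD, n = 6) and shares 311 exon bases with Iah1. Furin and Mmp14 had log2 fold changes of -0.25 ± 0.40 and -0.44 ± 0.56 (SE). Of the inflammasome genes, Casp1, whose product cleaves the precursors of IL-1β and IL-18, had 19 counts and Nlrp3 had 1. Pycard had 175 counts, Nlrc4 158, Gsdmd 109, Aim2 11 and Casp4 7. Gsdmd, the 1 higher gene, stood at 0.542 ± 0.359 CPM in Control and 5.63 ± 6.68 CPM in PNx (SD, n = 6). Its log2 fold change was 2.79 ± 0.84 (SE, adjusted p = 0.128 in edgeR).

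All 12 signal transducers were tested, and 0 were higher and 2 lower in PNx than in Control at an unadjusted p under 0.05. These are 0% and 16.7%, against 18.5% and 6.88% of all genes. Irak4, a kinase of the IL-1 receptor complex, had a log2 fold change of -0.83 ± 0.34 (SE, adjusted p = 0.154 in edgeR) and shares 395 exon bases with Twf1. Stat3 and Ripk1 stood at -0.27 ± 0.49 and 0.35 ± 0.41 (SE). Over all lists the 4 genes lower in PNx at that p were Irak4, Myd88, Pycard and Il6ra, of which the last 3 are named because of their values. All 4 have an opposite-strand exon overlap, as do 3 of the 9 that were higher and 20 of all 81 pathway genes. Genes with an overlap also have more counts (median 691.5, against 55 without). The share with an overlap among all genes at that p was not computed, and a link of overlap with direction was not tested.

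Of the other chemokines, 12 of 17 were tested, with 3 higher in PNx than in Control at an unadjusted p under 0.05. That is 25%, against 18.5% of all genes. Cxcl16 stood at 32.7 ± 15.9 CPM in Control and 206 ± 222 CPM in PNx (SD, n = 6), a log2 fold change of 2.23 ± 1.03 (SE, adjusted p = 0.182 in edgeR), and shares 552 exon bases with Zmynd15. The interferon-induced Cxcl10 had a log2 fold change of 0.56 ± 0.89, and Ccl27a one of 1.08 ± 0.38 (SE, adjusted p = 0.136 in edgeR). Of the other cytokines, 13 of 16 were tested and 2 were higher (15.4%, against 18.5% of all genes). Mif, Il1a and Tgfb1 had log2 fold changes of 0.30 ± 0.34, 0.64 ± 0.49 and -0.77 ± 0.48 (SE).

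The counts of these pathway genes followed the overlap of the annotation. The 20 genes with an opposite-strand exon overlap had a median of 691.5 counts, and the 61 that do not had a median of 55. Of the 10 genes with more than 1000 counts, 9 had such an overlap, and Mif was the exception. The 4 best covered members, with 87 to 228 counts, lay above the median of the pathway genes without an overlap and below that of the genes with one. Whether the reads of the overlapping genes come from the partner gene was not tested.

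**Figure D5:**
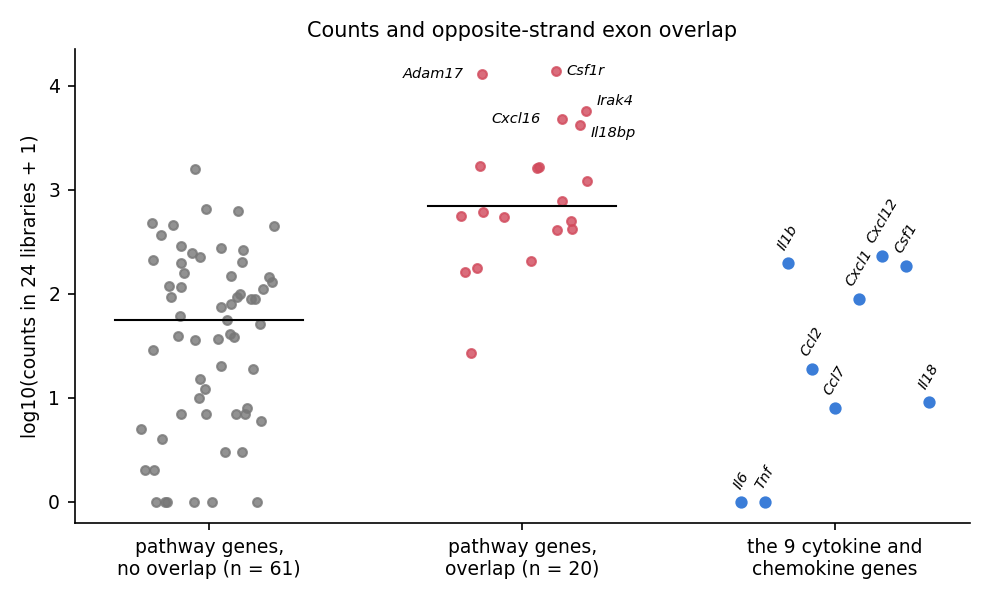
Counts summed over the 24 libraries, as log10(counts + 1), of the 81 pathway genes without and with exon bases shared with an opposite-strand gene (black line at the median) and of the 9 cytokine and chemokine genes. The highest pathway genes lie in the group with an overlap, and Il6 and Tnf lie at 0.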

How the data were processed

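Adipose tissue RNA of 24 mice was sequenced as paired 50 base reads from stranded mRNA libraries. The authors trimmed the reads with Trimmomatic 0.38, aligned them to GRCm38 with HISAT2 2.1.0 and counted reads per gene with GenomicAlignments, and the strand setting and annotation release are not given in the sources used here. They deposited raw counts per gene, FPKM and normalized values. The raw counts were used for all main results, the deposited FPKM for alternatives, and the normalized values were not used. Groups and replicate numbers came from the sample labels.

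Symbols, positions and exon lengths came from GENCODE M21. Genes with more than 10 counts over all libraries (26116) were tested with edgeR 4.0.16 in R 4.3.3 by 1 quasi-likelihood fit of 4 group means over 24 libraries, with TMM scaling, robust dispersions and a Benjamini-Hochberg adjusted p under 0.1. The SE of a log2 fold change was taken from its F statistic, as the size of the change over the root of F. CPM used library totals. The biological coefficient of variation was 71.4%, and a library held 679250 to 2979505 counts, so genes with a handful of counts have wide errors. The alternatives used DESeq2 1.42.0 and limma 3.58.1, and the tests were checked on simulated counts. The simulation held no libraries that stand apart from their group, so it does not cover genes whose values rest on such libraries. The members, the gene lists and the libraries left out together were chosen with earlier results of these data known. Named in the text are the members, genes overlapping them, the 3 genes of highest mean CPM in each pathway list, the 2 genes most like each member with at least 100 counts, and marker genes. Casp1, Nlrp3, Nlrc4, Gsdmd, Aim2, Casp4, Cxcr2, Ccr1, Ccr3, Ccr2, Cxcr4, Ackr3, Myd88, Pycard, Il6ra and mt-Nd6 lie outside this rule and were named after their values were seen.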

Additional observations from a re-analysis of the deposited data

Results flagged for a closer look

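In each of the 4 groups the highest and lowest of 6 libraries were compared with their neighbours for the 5 tested genes by Dixon's gap ratio. Chance flags about 1 in 20 groups of normally spread values, and here 5 groups held a library far from the others. These CPM rest on few counts, so that rate is no measure for them. Cxcl12 in PNx replicate 6 stood at 79.1 CPM, and the next highest PNx library stood at 3.59 CPM. Csf1 in the same library stood at 24.6 CPM, against 7.79 CPM in the next. Ccl2 in that library stood at 3.14 CPM, with 0 in the other 5, where any single count above 0 gives the highest possible gap ratio, so the chance rate does not hold for it. Ccl2 in NaKtide replicate 6 stood at 5.02 CPM, against 1.23 CPM in the next and 0 in the rest, so the rate does not hold there either. Ccl2 in PNx+NaKtide, at 0 throughout, has no gap ratio. Csf1 in Control replicate 1 stood at 8.17 CPM, against 3.34 CPM in the next, and this library had 15 Csf1 counts and an adipocyte sum of 959 CPM, the fourth highest of the 24.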

How the results depend on the processing

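The alternatives were other scalings and filters, DESeq2, limma voom, fits on the compared groups (not possible for the interaction), the replicate block, a stricter threshold, limma on log2(FPKM + 1) and log2(FPKM + 0.1), and leaving out libraries. Calls among the 5 members in PNx against Control went from 0 to 1 with DESeq2 size factors or library size scaling, to 3 in voom and to 0 to 1 without single libraries, and in PNx+NaKtide against PNx to 1 in voom. They stayed at 0 in the other contrasts. No member passed the filterByExpr filter, which kept 12050 genes, so the 0 calls under that filter were fixed in advance and are no result. Calls among pathway genes in PNx against Control went from 0 to 15 with DESeq2 size factors (33.3% of all genes called in that fit), 6 with library size scaling (15.7%), 3 with filterByExpr (17.9%), 16 in DESeq2 (29.7%), 44 in voom (63.5%), 10 without PNx replicate 6 and NaKtide replicate 6 (21.8%), and 0 to 14 without single libraries. In PNx+NaKtide against PNx they went to 8 in DESeq2 (5.80%) and 34 in voom (42.4%). The calls thus rose over the whole table. These causes were not tested. Of 36 pairs of same-numbered libraries, 19 deviated together with a correlation above 0.1 (median 0.12, range -0.59 to 0.71). Differently numbered libraries were not set beside them, so this does not decide whether the numbers mark pairs. The replicate block left 0 members called in each contrast, and with it Cxcl12 in PNx against Control was 0.96.

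Of the log2 fold changes of single members, these turned sign. In voom they were, for PNx against Control, -1.26 for Ccl2, -0.63 for Csf1 and -1.12 for Cxcl12, for PNx+NaKtide against PNx 0.91, 0.55 and 0.37, and for the interaction 0.26, 0.83 and 0.0013, with Csf1 at -0.28 in NaKtide against Control and 0.20 in PNx+NaKtide against NaKtide. Ccl2 in PNx against Control was -0.10 with the replicate block and -0.15 on log2(FPKM + 0.1). On that scale Csf1 was -0.27 in NaKtide against Control and 0.28 in PNx+NaKtide against NaKtide, and Cxcl1 was -0.56 in NaKtide against Control (-0.068 with a pseudocount of 1). Cxcl1 in PNx against Control was 0.0031 in DESeq2. Without PNx replicate 6 and NaKtide replicate 6, Csf1 was -0.29 and Cxcl12 -0.48 in PNx against Control, 0.13 and 0.19 in PNx+NaKtide against PNx, and Csf1 -0.069 in NaKtide against Control and 0.20 in the interaction. Without PNx replicates 1, 2 and 3, Il1b was -1.52 and Cxcl1 0.38 in PNx against Control, and Il1b 1.19 in PNx+NaKtide against PNx.

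With single libraries left out, values in PNx against Control ran from -1.89 to 1.34 for Ccl2, -0.28 to 1.01 for Csf1, -0.96 to 0.10 for Cxcl1 and -0.47 to 2.86 for Cxcl12, where the turns of Ccl2, Csf1 and Cxcl12 came from PNx replicate 6 and that of Cxcl1 from Control replicate 4 and PNx replicate 1. In PNx+NaKtide against PNx they ran from -2.96 to 0 for Ccl2, -1.0 to 0.13 for Csf1 and -3.41 to 0.18 for Cxcl12, again turned by PNx replicate 6. Ccl2 had 0 counts in PNx+NaKtide, and in PNx without replicate 6, so its fitted values there are set by the prior count and are no measured sizes. In NaKtide against Control they ran from -0.090 to 0.74 for Csf1 and -0.41 to 0.50 for Cxcl1, and in PNx+NaKtide against NaKtide from -0.18 to 1.10 for Cxcl1. The members tested had 18 to 228 counts over 24 libraries, which limits the precision of each value.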
